A study of Glycyrrhiza uralensis with 24 samples.

Results

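Roots of Glycyrrhiza uralensis, a licorice legume, were compared after 6 h in salt and without salt by RNA-seq, with 3 libraries in each group and thus 6 of the 24 libraries of the series. The salt roots came from seedlings labelled as 60 days old that stood in MS nutrient solution with 150 mM NaCl for 6 h. The control roots, from seedlings of the same labelled age, were the 0 h samples and are labelled as kept in distilled water. The 6 libraries were chosen by these labels alone, and 6 h replicate 2 is also given apart because it stood away from the other 6 h roots. The series also holds roots after 2 h and 12 h in salt and the stems and leaves (aerial parts) of the same 4 groups. The design text, which speaks of aerial parts, names the control of medicinal compound accumulation under salt as the question. Seedlings had spent 1 week in hydroponics. The salt group differs from its control in the medium and in the time of sampling as well as in NaCl, and these cannot be told apart. Whether the libraries of a group stem from separate or pooled plants is not labelled, so the p-values speak only of the spread among the libraries in each fit, which may be technical.

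Roots are the organ that meets salt first. High NaCl lowers the water potential around the root and brings sodium into its cells, and plants are known to answer with abscisic acid signalling, with transporters that move sodium out of the cell or into the vacuole, and with compatible solutes such as proline. Licorice roots are also where the triterpenoid glycyrrhizin and flavonoids such as liquiritin are stored. The files give TPM (a length-scaled share of a library's transcripts) for 34445 gene IDs without gene names. No ID could therefore be placed in one of these pathways, root marker genes could not be checked, and a few IDs stand as examples.

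The 6 h roots and the control roots differed in how much of each library the listed genes held. The listed TPM came to 418134, 418244 and 391447 in 6 h replicates 1, 2 and 3, against 510545, 473035 and 502085 in control replicates 1, 2 and 3. IDs above 0 numbered 18603, 18454 and 19147 in the 6 h roots, against 16787, 17131 and 17173 in the control roots. The groups did not overlap in either measure, and replicate 2 stood with the other 6 h libraries in both. Control titles follow another pattern than salt titles, so a batch and salt cannot be told apart. Sequencing depth is unknown, since TPM does not keep it.

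At 6 h, 52 genes were higher and 38 were lower in salt roots than in control roots, among 16138 genes whose mean reached 0.5 TPM. The test was limma on log2(TPM + 1) with all 12 root libraries in the fit and a threshold of 0.05 on the Benjamini-Hochberg adjusted p, and 0.558% of the genes tested were called, 0.322% as higher and 0.235% as lower. The genes that rose had low levels in control roots, with a median of 14.4 TPM in the 6 h roots, against 0.907 TPM in the control roots. All 52 reached 1 TPM in each 6 h root, while 21, 30 and 24 of them did so in control replicates 1, 2 and 3. Those that fell were moderately expressed, with a median of 5.44 TPM in the 6 h roots, against 32.2 TPM in the control roots. The 42 genes that rose and were above 0 in at least 1 control had a median log2 fold change of 2.62 (1.34 to 5.13), and 38 of them were at least 4-fold. The 30 genes that fell and were above 0 in at least 1 root at 6 h had a median of -1.63 (-1.01 to -4.19), and 11 were at least 4-fold. With the genes listed at 0 throughout the lower group, whose fitted values depend on the pseudocount, the medians were 2.75 and -1.81. Over all genes tested the median was -0.06.

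For all 90 genes, the 6 h roots lay wholly above or wholly below the control roots, which the call itself favours. Over all genes tested, groups without overlap were found for 7.16% with 6 h higher and for 11.3% with 6 h lower. The 52 genes together held 2526, 2516 and 2290 TPM in 6 h replicates 1, 2 and 3, against 329.4, 398.1 and 335.3 TPM in control replicates 1, 2 and 3. The 38 genes held 827.6, 743.2 and 803.6 TPM in the 6 h roots, against 2952, 2508 and 2502 TPM in the control roots. Replicate 2 stood level with replicates 1 and 3 in both sums. It was the 6 h library nearest to the controls for 20 of the 52 and 12 of the 38 genes, where replicate 1 was so for 16 and 7 and replicate 3 for 16 and 11, and 8 of the 38 had equal values in all 3. Since replicate 2 took part in calling these genes, the agreement is partly built into the list.

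**Figure D1:**
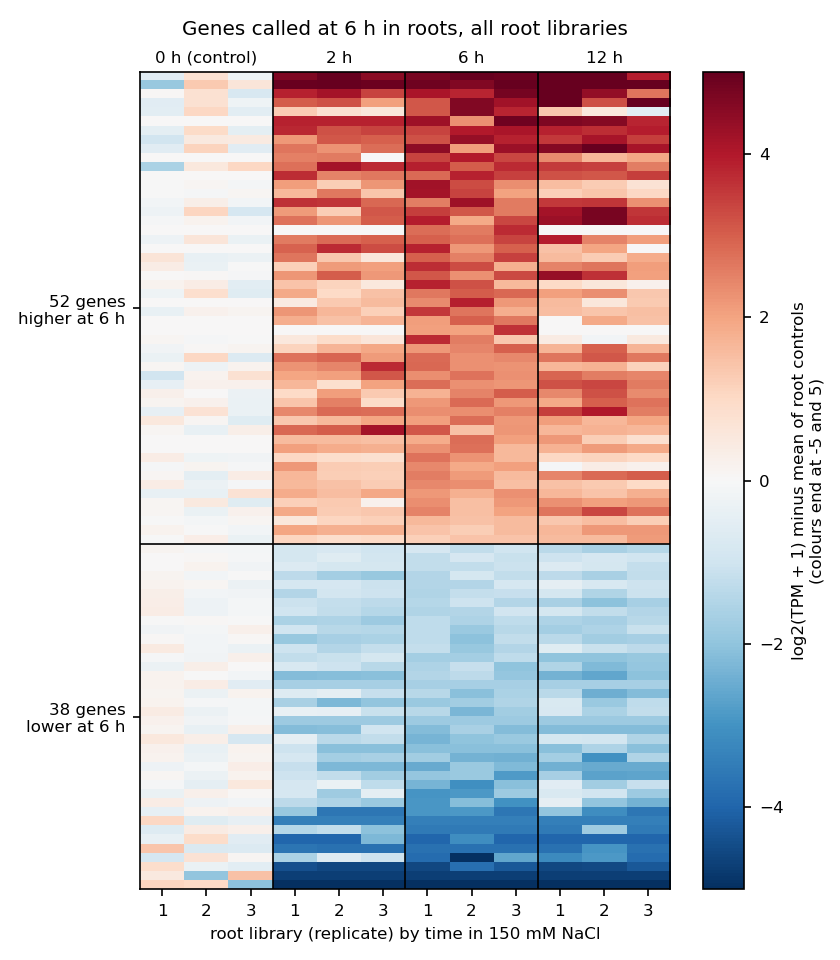
Each row is 1 of the 90 genes called at 6 h, each column 1 of the 12 root libraries, and the colour is log2(TPM + 1) minus the mean of the root controls. The 52 genes higher at 6 h and the 38 lower at 6 h keep their direction in all 3 libraries at 6 h, and most show it at 2 h and 12 h too, measured against the same 3 controls.

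How many genes were called depended on single libraries. It was 12, 790 and 279 when 6 h replicate 1, 2 or 3 was dropped. It was 15, 36 and 55 when control replicate 1, 2 or 3 was dropped. Of the 90 genes, 8 were called in each of these 6 fits, 4 higher and 4 lower, and each of the 90 was called in at least 1 of them. No gene of the 90 changed its sign under any setting tried for this comparison. Since the groups did not overlap for any of the 90, only a rescaling of the libraries could have reversed a sign. A limma fit of the 6 libraries alone called 0 of 16237 genes (lowest adjusted p = 0.139), with 1983 at an unadjusted p under 0.05, where the fit of all 12 root libraries had 2723 at that level. The fit of all 12 takes the spread from more libraries and pools it with the 2 h and 12 h roots, which varied less. How far each of these bears on the 90 calls was not tested. The median SD of a gene on the log2 scale was 0.37 at 2 h and 0.34 at 12 h, against 0.52 at 6 h and 0.44 in the controls. The pooled SE can therefore understate the spread of the groups compared. Higher genes made up 57.8% of the calls. They made up 71% after median-of-ratios scaling and 84% after scaling to the listed total. With this last scaling the median log2 fold change over all genes was 0.14 instead of -0.06. Lower genes were the majority with a pseudocount of 5 TPM (20 higher and 25 lower), library quality weights (1161 and 1466) and no filter (4 and 6), and when 6 h replicate 2, control replicate 1 or control replicate 3 was dropped (368 and 422, 7 and 8, 23 and 32). The balance of directions thus depends on the settings. The typical error was large beside most differences, with a median SE of 0.44 on the log2 scale, and 541 of the 606 genes that differed at least 4-fold were not called.

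The most abundant genes among those called were described in every library. They were taken from called genes whose groups did not overlap. Separation from the controls, with replicate 2 on the same side, was thus set by the choice. Glyur003164s00038815 stood at 569.43, 427.74 and 288.78 TPM in 6 h replicates 1, 2 and 3, against 103.76, 69.56 and 126.36 TPM in control replicates 1, 2 and 3. All 3 salt roots were above every control root, and replicate 2 lay between the other two. The log2 fold change was 2.08 (SE 0.31, limma adjusted p = 0.0262). Dropping 6 h replicate 1 ended the call (limma adjusted p = 0.0827), as did dropping control replicate 1 or 2 (0.0921 and 0.0694) and fitting all 24 libraries (0.0642). Its mean was 99.9 ± 28.6 TPM in the controls, 253 ± 48.3 at 2 h, 429 ± 140 at 6 h and 670 ± 131 at 12 h (SD, n = 3 each), so the means stood in the order of time in salt.

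Glyur000270s00013309 stood at 175.44, 500.57 and 369.69 TPM in 6 h replicates 1, 2 and 3, against 12.7, 33.82 and 16.64 TPM in control replicates 1, 2 and 3. Replicate 2 was the highest of the salt roots here. The log2 fold change was 3.98 (SE 0.59, limma adjusted p = 0.0262), and the call was lost without control replicates 1 and 3 (limma adjusted p = 0.0933 and 0.0606).

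Glyur000065s00004258 had the highest control level of the genes that fell. It stood at 219.21, 143.32 and 140.17 TPM in 6 h replicates 1, 2 and 3, against 837.83, 603.87 and 803.96 TPM in control replicates 1, 2 and 3. The groups were far apart and replicate 2 was level with replicate 3. The log2 fold change was -2.17 (SE 0.40, limma adjusted p = 0.0437). The call was kept without 6 h replicate 2 (limma adjusted p = 0.0383) and lost when any other of the 6 libraries was left out, with limma adjusted p of 0.0618 to 0.152. Both other scalings, by median of ratios and by listed total, ended it as well (limma adjusted p = 0.056 and 0.0568), as did a pseudocount of 5 TPM (0.0514), no mean-variance trend (0.0565) and the fit of all 24 libraries (0.133).

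Glyur005715s00047721 showed a smaller change with little spread. It stood at 213.64, 213.44 and 236.72 TPM in 6 h replicates 1, 2 and 3, against 515.43, 563.16 and 442.29 TPM in control replicates 1, 2 and 3. The salt roots lay close together and below every control. The log2 fold change was -1.19 (SE 0.19, limma adjusted p = 0.0317). The call ended when 6 h replicate 1 was dropped (limma adjusted p = 0.108), when control replicate 1 or 2 was dropped (0.116 and 0.0925), after scaling to the listed total (0.0724) and without a mean-variance trend (0.0537). For all 4 IDs the call also ended when low genes were not filtered out and when the 6 libraries were fitted alone.

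**Figure D2:**
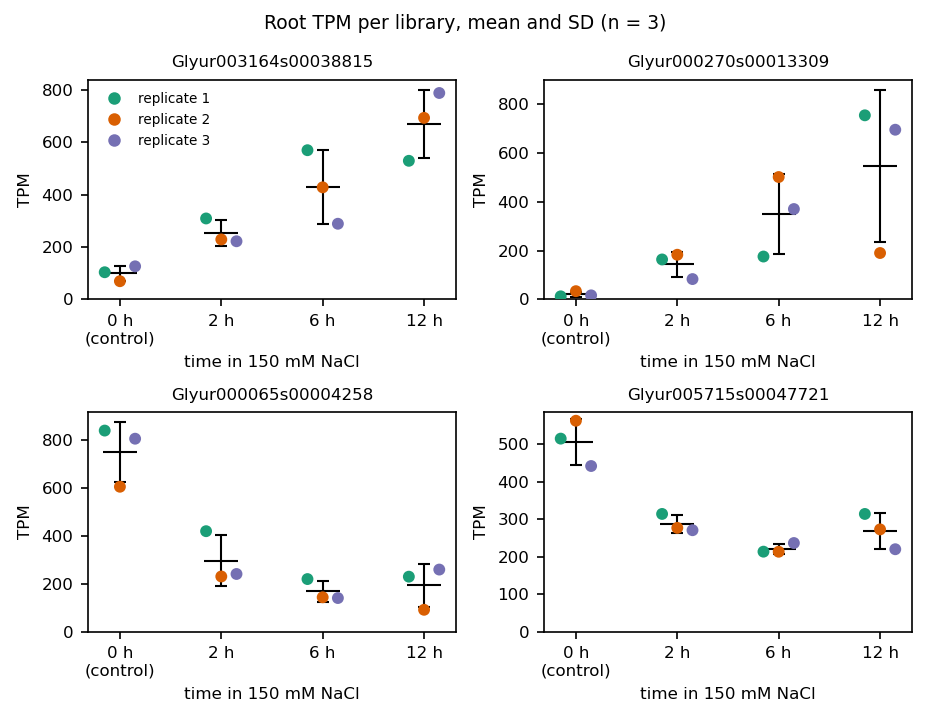
Points give TPM in each of the 12 root libraries by time in 150 mM NaCl, coloured by replicate, with the group mean and SD (n = 3). In all 4 genes the 3 libraries at 6 h stand apart from the 3 controls, and 6 h replicate 2 lies on the same side as 6 h replicates 1 and 3. Both were set by the choice of genes whose groups do not overlap.

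Some genes were listed at 0 in one of the groups. Of the 52 genes that rose, 10 were listed at 0 in all 3 control roots, and 5 of these were above 0 in all 9 salt roots. Of the 38 that fell, 8 were listed at 0 in all 3 roots at 6 h, and 5 of these in all 9 salt roots. Over all genes tested, the controls were at 0 throughout for 550 of 7382 genes with a higher value at 6 h. The 6 h roots were so for 168 of 8684 genes with a lower value. Among all IDs, 300 were at 0 in every control root and above 0 in every 6 h root, while 56 were above 0 in every control root and at 0 in every 6 h root. The 6 h roots had more IDs above 0 than the controls in general, which favours the first pattern. A value of 0 can be a failed estimate, and no single fold change is given for such a gene. A group at 0 throughout also adds no spread to the fit, which holds the SE of such genes down.

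For most genes that respond to salt in the other root libraries, 6 h replicate 2 lay nearer to the controls. A scale was built in a fit with no 6 h library, from 621 genes called at both 2 h and 12 h in the same direction, 229 higher and 392 lower, with the control mean at 0 and the mean of the 2 h and 12 h roots at 1. The median position was 0.88 for 6 h replicate 1, 0.29 for replicate 2 and 0.85 for replicate 3. The control roots, each left out of the control mean in turn, had medians of -0.23, 0.06 and 0.13. Replicate 2 was nearer to the controls than to salt for 406 of the 621 genes (65.4%), against 85 (13.7%) for replicate 1 and 107 (17.2%) for replicate 3. Its quartiles spanned a wide range, with the upper one at 0.69. The controls helped to choose these genes, which holds their own positions near 0, and the 6 h libraries did not. Replicate 2 was, however, picked out for a separate account with its values known.

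**Figure D3:**
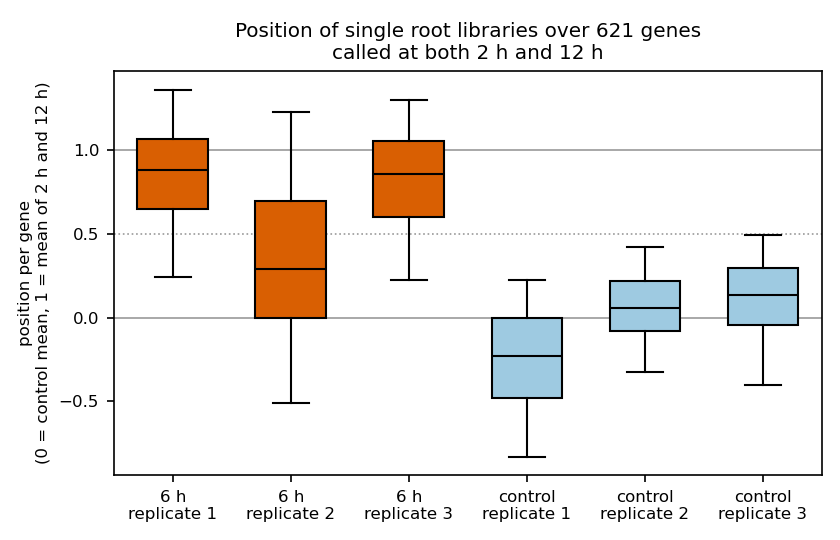
Boxes show the median and quartiles, and whiskers the 5th and 95th percentiles, of the position of each single root library over 621 genes, where 0 is the control mean and 1 the mean of the 2 h and 12 h roots. Replicates 1 and 3 at 6 h have medians of 0.88 and 0.85, while replicate 2 has 0.29 with the widest box of the 3, and the controls lie between -0.23 and 0.13.

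Over all genes tested, replicate 2 stood apart from the other 6 h roots, but nearness to the controls was not particular to it. Replicates 1 and 3 at 6 h differed at least 2-fold in 2381 of the 16138 genes. Replicate 2 differed that much from replicate 1 in 6040 genes and from replicate 3 in 6202 genes. Against control replicates 1, 2 and 3, replicate 2 differed in 4460, 4835 and 6241 genes. Replicate 1 differed from these controls in 6816, 5230 and 4297 genes, and replicate 3 in 6395, 4668 and 4233 genes. Replicate 2 was thus nearest to control replicate 1, while replicates 1 and 3 were nearest to control replicate 3 and nearer to it than replicate 2 was to any control. The median SD of a gene on the log2 scale was 0.44 in the controls, 0.37 at 2 h, 0.52 at 6 h and 0.34 at 12 h, and 0.21 at 6 h over replicates 1 and 3.

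Replicate 2 also held transcripts that other roots lacked. In it, 67 genes were at least 8-fold above every other root library on the log2(TPM + 1) scale and 17 were at least 8-fold below, while the other 11 root libraries had 1 to 16 genes above and 0 to 12 below. The 67 genes summed to 4508 TPM in replicate 2 and had a median of 20.1 TPM there. Of these, 25 were listed at 0 in all 11 other roots. The most abundant, Glyur001944s00035547, picked after its values were seen, stood at 1432.6 TPM in replicate 2, was listed at 0 in 10 of the other root libraries and stood at 0.68 TPM in 2 h replicate 1. None of the 67 was among the 90 genes called. The aerial library at 6 h that carries the same number in its title had 60 such genes among aerial libraries, and 10 genes were in both lists (14.9% of the root list and 16.7% of the aerial list). For the other 8 shared numbers the lists held 1 to 16 root and 0 to 7 aerial genes, and 0 or 1 gene was in both, which in lists this short allows no comparison of shares.

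Without replicate 2, the comparison rested on 6 h replicates 1 and 3 against the 3 controls, and 790 of 15932 genes were called (4.96%), 368 higher (2.31%) and 422 lower (2.65%). All 90 genes were among them. Since replicate 2 was dropped because of its values, a larger count is favoured. The median log2 fold change was 2.25 among the higher and -1.80 among the lower genes, and 228 and 191 of them were at least 4-fold. The 368 genes had a median of 11.1 TPM at 6 h, against 1.02 TPM in the controls, and the 422 genes had 4.83 TPM at 6 h, against 29.2 TPM in the controls. Which direction held more genes depended on the scaling, since higher genes made up 46.6% of the calls here, 54.6% after median-of-ratios scaling and 72.2% after scaling to the listed total. The count became 73 or 320 when 6 h replicate 1 or 3 was also dropped, and 126, 278 or 1763 when control replicate 1, 2 or 3 was. Where 1 library was left at 6 h, it was assumed to vary like the other groups.

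These 790 genes were called without the values of replicate 2. Over them, its median position was 0.20 between the controls at 0 and the mean of replicates 1 and 3 at 1, with quartiles of -0.07 and 0.60. Replicate 2 was itself set apart because of its values, which favours a low position here. The median was 0.0476 without control replicate 1, 0.303 without control replicate 2 and 0.121 after median-of-ratios scaling. The position was alike for both directions, at 0.19 for the 368 higher and 0.21 for the 422 lower genes. Replicate 2 lay nearer to the controls for 535 genes (67.7%) and inside the range of the 3 controls for 298 (37.7%). For 68 genes it lay beyond the other 6 h roots. When replicate 3 was held out instead, so that replicate 2 helped to set the salt end of the scale, the 279 genes called without it gave it a median position of 0.29, and it lay nearer to the controls for 189 of them (67.7%), the same share as for replicate 2. Its median was 0.19 over the 222 higher and 0.72 over the 57 lower genes. A low position on this kind of scale was thus also found for replicate 3. There, replicate 2 helped to choose the genes as well as the salt end. On the scale built without 6 h libraries, the median was 0.85 for replicate 3 and 0.29 for replicate 2. When replicate 1 was held out, 12 genes were called and its median position over them was 0.81.

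Most of the 90 genes were also away from control levels at 2 h and 12 h. The 52 higher genes had median log2 fold changes of 1.79 at 2 h, 2.75 at 6 h and 2.07 at 12 h, and 32 of them were called as higher at 2 h and 35 at 12 h. The 38 lower genes had medians of -1.47 at 2 h, -1.81 at 6 h and -1.80 at 12 h, with 26 called as lower at 2 h and 31 at 12 h. Over all 16138 genes, 4.51% were called at 2 h (1.54% higher and 2.97% lower) and 4.94% at 12 h (1.85% higher and 3.09% lower). The 3 comparisons share their control roots. Of the 52 genes, 4 had their highest group mean at 2 h, 27 at 6 h and 21 at 12 h, and of the 38 genes, 10 had their lowest at 2 h, 18 at 6 h and 10 at 12 h. Since the genes were chosen at 6 h, an extreme at 6 h is favoured.

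Between the salt times themselves, 26 of 16138 genes differed at 6 h from 2 h (0.161%), with 21 higher (0.13%) and 5 lower (0.031%) at 6 h. Of the 21 genes, 19 were called against controls at 2 h, 2 at 6 h and 14 at 12 h. Their median log2 difference from controls was -2.28 at 2 h, 0.09 at 6 h and -1.53 at 12 h. At 2 h all 3 libraries lay below every control for 19 of the 21 (18.3% of all genes tested), and at 12 h for 17 (17.8% of all). The 6 h range overlapped the control range for 17, a share like the 81.5% of all genes tested. The choice of genes as higher at 6 h than at 2 h favours low values at 2 h. The 5 genes lower at 6 h than at 2 h had medians of 2.56 at 2 h, -0.32 at 6 h and -0.33 at 12 h. All 5 were called against controls at 2 h and 0 at 6 h. Replicate 2 was within 2-fold of the mean of replicates 1 and 3 for 19 of the 21 and for all 5 genes. It took part in calling these genes, which favours a small spread at 6 h. The share over all genes is not given here, so these counts cannot be set against it. Without replicate 2, 17 genes were higher and 3 lower. Without 2 h replicates 1, 2 and 3 the count was 42, 5 and 6, and without 6 h replicates 1 and 3 it was 5 and 140.

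From 6 h to 12 h, 13 genes changed (0.0806%), 1 higher (0.0062%) and 12 lower (0.0744%) at 12 h. The 12 had a median log2 fold change of -3.14. For all 12 lower genes every 12 h library lay below every 6 h library (7.66% of all genes tested), which the choice of these genes favours. For 11 of them every 12 h library also lay below every control (17.8% of all). The count was 2, 15 and 204 with 6 h replicate 1, 2 or 3 dropped, and without 12 h replicates 2 and 3 it was 1 and 4. Without 12 h replicate 2 no gene was called lower at 12 h, and without 12 h replicate 3 or 6 h replicate 1 there were 2. The lower calls thus depended on single libraries of both times. Of the genes in both comparisons, 6 were higher at 6 h than at 2 h and lower at 12 h than at 6 h. The 2 tests share the 6 h libraries.

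The most abundant of these 6 at 6 h, Glyur001381s00036133, picked after its values were seen, stood at 314.95, 241.7 and 236.49 TPM in the controls, 58.85, 51.45 and 49.84 at 2 h, 293.36, 326.35 and 255.24 at 6 h and 115.92, 70.56 and 101.9 at 12 h. The 6 h roots overlapped the controls and stood apart from both other salt times. The log2 fold change was 2.42 for 6 h over 2 h (limma adjusted p = 0.00211) and -1.61 for 12 h over 6 h (limma adjusted p = 0.0264).

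Another of the 6, Glyur001104s00026651, was seen in roots at 6 h and at no other time. It stood at 5.99, 5.1 and 12.31 TPM in 6 h replicates 1, 2 and 3 and was listed at 0 in the other 9 root libraries, and it was the single gene of the 6 also called against controls (limma adjusted p = 0.00652). The groups at 0 added no spread to its fit, which holds this p-value down. In aerial parts it was listed at 6.04 TPM in 6 h replicate 3 and at 0 in the other 6 h and control libraries. Among all IDs, 10 were above 0 in the 3 roots at 6 h and in no other root library, where 12 and 10 IDs had this pattern for 2 h and 12 h and 14 for the controls. Time of day moves along with time in salt, and both cannot be told apart.

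**Figure D4:**
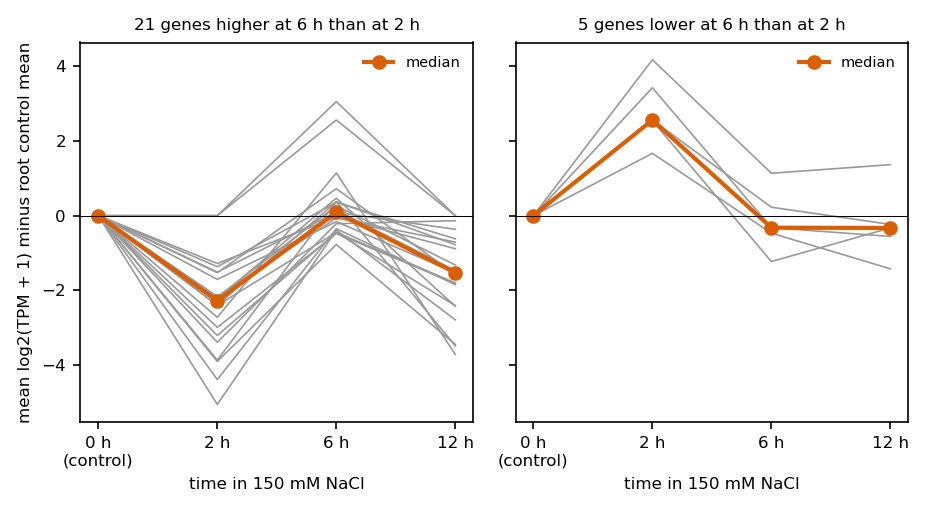
Lines give the mean log2(TPM + 1) of each gene in the 4 root groups minus its control mean, for 21 genes called higher and 5 called lower at 6 h than at 2 h, with the median in colour. The medians of the 21 genes are -2.28, 0.09 and -1.53 at 2, 6 and 12 h, and those of the 5 genes are 2.56, -0.32 and -0.33.

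In aerial parts the same genes had smaller fold changes. Of the 90 genes, 73 could be tested in aerial libraries. The 41 genes among them that were higher in roots had a median log2 fold change of 0.77 in aerial parts, and of 2.85 in roots, and 30 of them (73.2%) were higher in aerial parts too, where 59% of all 6240 tested genes with a higher value in 6 h roots were. The 32 genes that were lower in roots had a median of -0.68 in aerial parts and -1.69 in roots, and 22 of them (68.8%) were lower in aerial parts, where 70.7% of all 7836 such genes were. The same direction was therefore not more frequent among the lower genes than among all genes. Aerial parts at 6 h had 0 of 15744 genes called by limma (lowest adjusted p = 0.0871, with 1804 genes at an unadjusted p under 0.05) and 33 without aerial 6 h replicate 2. Being chosen in roots, the genes favour a larger value there.

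The difference between the organs was tested itself, as the 6 h response in roots minus that in aerial parts, in a fit of all 24 libraries. It was called for 13 of 16718 genes (0.0778%), 9 positive (0.0538%) and 4 negative (0.0239%), and for 26 genes with a replicate block for the numbers that root and aerial salt libraries share in their titles, the 13 among them. Other settings kept fewer of the 13 genes. With a pseudocount of 5 TPM 4 stayed called, without root control replicate 1 it was 4, and without aerial 6 h replicate 2 it was 6. Without a filter 12 stayed called, and without root 6 h replicate 2 all 13 did. Of the 13 genes, 11 were also called at 6 h in roots, where 0.558% of all genes tested were. Both tests use the same root libraries, which favours such an overlap. For 8 of the 13, all 6 aerial libraries compared were at or under 1 TPM, so the difference was one between a change in roots and near absence in aerial parts. Of these, 4 were at 0 in all 6, so these aerial groups added no spread to the fit. For 5 genes the groups lay apart in opposite directions in the organs, a pattern that choosing genes by this difference favours. Its share over all genes is not given here, so the 5 cannot be set against it. The count was 45 without root 6 h replicate 2, 46 without replicate 2 of both organs, 29 without aerial 6 h replicate 1, 22 without root 6 h replicate 3, 7 and 6 without aerial control replicates 1 and 3, and 5 without root control replicate 1. Negative differences were the majority in 8 of 20 settings, among them a pseudocount of 5 TPM (3 positive and 6 negative), without aerial 6 h replicate 1 (12 and 17) or 2 (4 and 7), without root control replicate 1 (1 and 4) and without replicate 2 of both organs (21 and 25).

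Glyur000270s00013309, described above for roots, was the gene with the largest positive difference. In aerial parts it stood at 10.48, 17.11 and 3.81 TPM in 6 h replicates 1, 2 and 3, against 17.83, 80.62 and 20.5 TPM in control replicates 1, 2 and 3. In the aerial parts the salt libraries were all below the controls. In roots they were all above, which the choice of this gene as an example required. The aerial change alone was not called (log2 fold change -1.68, limma adjusted p = 0.384), while the difference between the organs was 5.66 (SE 0.91, limma adjusted p = 0.0205), and 0.00795 with the replicate block. Without root control replicate 1 the limma adjusted p was 0.053.

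**Figure D5:**
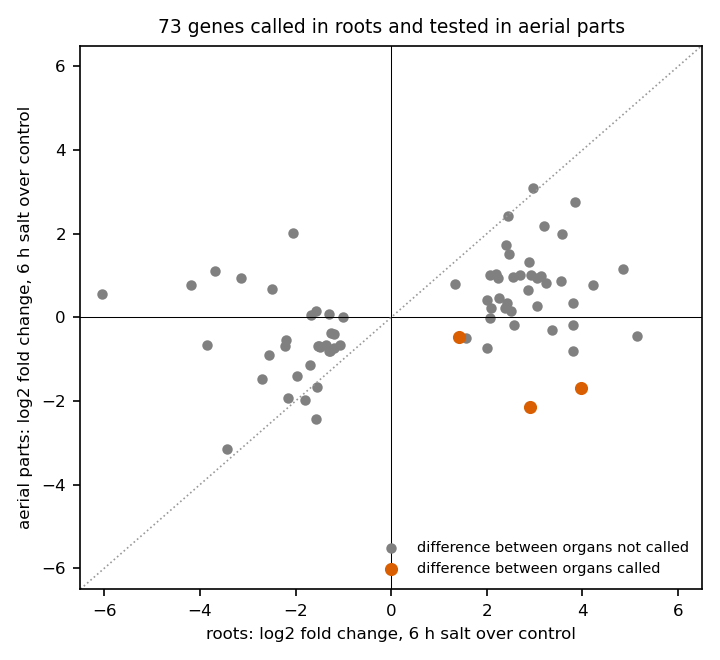
Each point is 1 of 73 genes called at 6 h in roots and tested in aerial parts, by its log2 fold change (6 h salt over control) in roots and in aerial parts, and the dotted line marks equal changes. Points lie nearer to 0 on the aerial axis, with medians of 0.77 and -0.68 there for the genes that were higher and lower in roots, and coloured points are genes whose difference between organs was called.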

How the data were processed

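Total RNA was sequenced from roots and aerial parts in 8 groups of 3 libraries, and groups were taken from the sample descriptions. The authors deposited TPM values per the file headers, in 1 table per library with 38135 rows for 34445 IDs. Per the submitters' processing notes the tools were HISAT2, StringTie, RSEM, fastp, edgeR and DESeq2; their roles and versions, the annotation and the genome build were not given in the sources used here. Rows of 1 ID were summed, and no 2 libraries were identical. The listed genes hold 39.1% to 51.1% of the full TPM scale in roots. The labels describe the salt treatment both as drought and as NaCl, and it was taken as NaCl.

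log2(TPM + 1) was tested in limma 3.58.1 (R 4.3.3) with a mean-variance trend, two-sided, on genes whose mean over the fitted libraries reached 0.5 TPM. The pseudocount of 1 understates the fold changes of low genes. The fits were tested on simulated data with independent noise, the same spread in all groups and no outlying or paired libraries. That check does not cover the unequal spread or the deviating 6 h replicate 2 of these data. The comparisons and lists were chosen with earlier results of these data known. The IDs given as examples are the 2 with the highest 6 h mean among called genes that rose and the 2 with the highest control mean among those that fell, with groups that do not overlap. Gene lists by symbol had no match among the IDs and went untested. Alternatives were the pseudocount, the filter, the scaling, library weights, the variance trend, a 2-fold minimum, the libraries in the fit and each library left out. Positions on the scale without 6 h libraries, genes far from every other library, and fits without replicate 2 of both organs were added after the data were seen.

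No pairing links the salt and control roots. Root and aerial salt libraries share 9 numbers in their titles, and the residuals of such pairs correlated at 0.198 to 0.567 over 16718 genes, each aerial library best with its own number among the roots of its time, so the numbers were taken as pairs in an alternative fit (within-pair correlation 0.331). Tables and plots were made in Python 3.11.15 with pandas 2.3.3 and matplotlib 3.10.9.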

Additional observations from a re-analysis of the deposited data

Results flagged for a closer look

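The 6 h response of 13 genes differed between roots and aerial parts in a test of the difference itself. Among the genes given as examples this held for Glyur000270s00013309, with a log2 difference of 5.66 (roots minus aerial parts, limma adjusted p = 0.0205, above the controls in 3 of 3 roots and below them in 3 of 3 aerial libraries). The separation in roots was set by the choice of the example genes.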

How the results depend on the processing

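The number of genes called at 6 h in roots was 45 with a pseudocount of 5 TPM, 10 without a filter on low values, 2627 with library quality weights, 439 with all 24 libraries in the fit and 0 with the 6 libraries alone (limma, with 1983 genes at an unadjusted p under 0.05). Leaving out 1 library gave 12 to 790. The weights gave 6 h replicate 2 the lowest weight of the 12 root libraries, 0.217. Without 6 h replicate 2 the count was 395 without the filter, 3386 with weights, 1319 with all 24 libraries and 75 with the 5 libraries alone, and leaving out a further library gave 73 to 1763. Leaving out 1 library gave 5 to 140 genes for 6 h against 2 h and 1 to 204 for 12 h against 6 h. The organ difference was called for 8 genes with a pseudocount of 0.1 TPM and 22 without the filter. It was called for 46 without replicate 2 of both organs, for 5 to 45 without 1 library, for 26 with the replicate block and for 80 with the replicate block and without replicate 2 of both organs. The cause was not tested. In all, 42 of 82 settings left a result near its main value. For counts this meant within 1.5 times the main value. For the position of 6 h replicate 2 (0.0476 to 0.303) it meant within 0.18 of the main value of 0.20. That margin was 1 SD of the positions of the 3 controls, and does not place replicate 2 among them. The majority direction of the calls turned in 6 of 17 settings for 6 h against control, in 9 of 16 without 6 h replicate 2, in 0 of 11 for 6 h against 2 h, in 1 of 11 for 12 h against 6 h and in 8 of 20 for the organ difference. For the 4 IDs given as examples the call was kept in 39 of 68 settings and lost in 29. No sign was reversed, which groups without overlap allow only under a rescaling of the libraries. Differences under the spread between libraries could not be detected with 3 libraries a group, and the depth behind each value is unknown.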
